A study of Rattus norvegicus with 8 samples.

Results

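Expression of 10 prostaglandin genes was examined in the dentate gyrus (DG) of ovariectomized (OVX) rats after status epilepticus (SE), with and without estradiol (E2) replacement. The genes were chosen by name as members of the pathway: Pla2g4a, which releases arachidonic acid, the cyclooxygenases Ptgs1 and Ptgs2, the terminal synthases Ptges and Ptgds, the prostaglandin E2 receptors Ptger1, Ptger2, Ptger3 and Ptger4, and the degrading enzyme Hpgd. They are 10 of the 35199 gene names on the array and were probed by 29 of its 43379 non-control spots through 11 different probes. A gene was quantified when at least 1 of its spots had a foreground of 2 times its local background in all 8 rats, which held for 7 of the 10 genes and for 20787 of all names. Ptger1, Ptger3 and Ptger4 did not pass and are described separately. The 10 genes and the lists used below were chosen with earlier results of these data known.

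Prostaglandins are short-lived lipid signals made on demand. Cytosolic phospholipase A2 frees arachidonic acid from membranes, a cyclooxygenase converts it to prostaglandin H2, and a terminal synthase turns that intermediate into prostaglandin E2, prostaglandin D2, prostacyclin or thromboxane. Ptgs1 is known as the constitutive cyclooxygenase, while Ptgs2 and Ptges are known as inducible genes. In the hippocampus Ptgs2 is an activity-regulated gene of excitatory neurons, and seizures are a classical stimulus for it.

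All rats were adult female Sprague-Dawley, were ovariectomized 1 week before hormone treatment and underwent SE after intraperitoneal kainic acid, so ovariectomy and SE were common to both groups. The oil-injected group (COS) and the E2-replaced group (CES) held 4 rats each. E2 was given as estradiol benzoate, which the sample labels call EB. By the sample records, kainic acid was dosed at 16 mg/kg and pentobarbital stopped SE at 5 h. By the same records, the 4 estradiol benzoate doses of 2 µg, spaced by 24 h, lay on both sides of SE. The methods of the study describe another kainic acid dose, diazepam, estradiol given entirely before SE, and more than 1 time of tissue collection, so the interval between SE and tissue collection is not settled here. Rats without SE were not analysed here, and a level in COS or CES is therefore no measure of what SE itself changed. OVX rats have no cycling ovarian hormones, and E2 was supplied alone, without progesterone. In tissue, fewer cells of a type and less RNA per cell cannot be told apart.

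Total RNA from each rat was labeled with Cy3 (replicates 1 and 3) or Cy5 (replicates 2 and 4), and a pair of rats of the same group shared each of the 4 arrays, which lay on 1 slide. No array held both groups, so arrays differ between the groups along with the hormone. Between 30690 and 38553 spots were valid per rat, and none was saturated. With Cy3, 86.95% and 88.87% of spots were valid in the COS rats and 77.19% and 81.5% in the CES rats. With Cy5 the shares were 80.13% and 74.65% in COS and 73.37% and 70.75% in CES. Levels are given as log2 of the net signal over the median valid spot of the same channel, and can be compared between rats for a gene but not between genes. CES replicate 2 stood apart from its group: over all genes its levels correlated at 0.974 to 0.983 with the COS rats and at 0.954 to 0.964 with the other CES rats, whereas the other CES rats correlated at 0.932 to 0.943 with the COS rats. Its label was kept, and the results of the 7 quantified members are given with and without it. The granule neuron list also holds Snap25 and Syt1, which are general neuronal genes, and its marker Prox1 was not quantified. Its 6 quantified genes had a mean level of 2.63 to 3.25 in COS and of 2.68 to 2.93 in CES. Neurod1 and Syt1 were called higher and Dsp and C1ql2 lower in CES. The mean is therefore no measure of granule neurons alone. Of the 5 pyramidal neuron markers 3 were higher and 1 was lower in CES, with mean levels of 0.24 to 1.06 in COS and of 0.88 to 1.75 in CES. For comparison, 5.74% of all genes were called higher and 28.1% lower.

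Of the 7 quantified members, 4 were lower in CES (Pla2g4a, Ptgs2, Ptges and Ptger2) and none was higher (limma, dye as a term and array as a random block, adjusted p under 0.05). Of all 20787 genes, 28.1% were called lower and 5.74% were called higher. This balance depended on the scaling, since 2996 genes were higher and 1938 lower under loess, and 3380 and 1778 when channels were scaled on commonly valid spots. Under both of these, and under normexp, Ptges was the only member called, while the quantile setting and the deposited table called 3 members lower. The median CES minus COS difference of the 7 members was -0.79 on the log2 scale, while that of all genes was -0.25. Scaling on commonly valid spots moved these medians to -0.40 and 0.14. This scaling shifts all genes of a rat alike, so the distance between the medians, -0.54, could not change. Under normexp that distance was -0.26, and with the processed signal it was -1.095. The differences and folds given below therefore hold for the reported scaling, and the member differences are also given against the all-gene median. The other 3 quantified members, Ptgs1, Ptgds and Hpgd, did not pass the test. Non-overlapping groups with CES lower were found in 3 of the 7, namely Pla2g4a, Ptgs2 and Ptges, against 20.3% of all genes. Without CES replicate 2 the same 4 members were called, without COS replicate 3 Ptges alone was, and without CES replicate 1 Ptgs2 and Ptges were. In the same order, these fits called 6674 of 20951, 1037 of 20869 and 2213 of 21123 genes lower. The levels of the 7 quantified genes in each rat show these 3 separated pairs of groups beside 4 pairs that overlap.

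**Figure D1:**
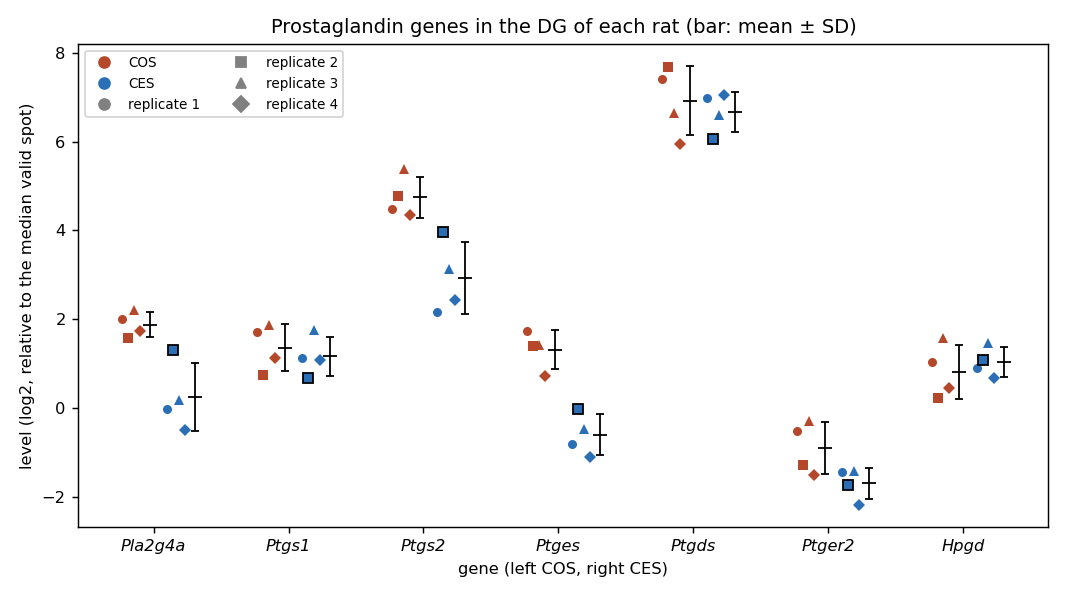
Level of each quantified gene (log2, relative to the median valid spot) in the 4 COS and the 4 CES rats, with a marker shape for each replicate number, CES replicate 2 outlined in black, and a bar for the group mean ± SD. The groups of Pla2g4a, Ptgs2 and Ptges are apart, those of Ptgs1, Ptgds, Ptger2 and Hpgd overlap, and CES replicate 2 is the CES rat nearest to COS for Pla2g4a, Ptgs2 and Ptges.

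Pla2g4a, the cytosolic phospholipase A2 that starts the pathway, was read by a single spot. Its probe is shown because this one spot carries the result, and lies at chr13:64146152-64146211 of rn4.
Pla2g4a probe: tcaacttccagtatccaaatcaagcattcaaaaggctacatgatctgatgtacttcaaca
The COS rats had levels of 2.01, 1.57, 2.22 and 1.72, and the CES rats had levels of -0.032, 1.31, 0.18 and -0.50. Every COS rat was above every CES rat, and CES replicate 2 was the only CES rat above 1 on this scale. The COS mean was 1.88 ± 0.29 (SD, n = 4) and the CES mean was 0.24 ± 0.77 (SD, n = 4), which leaves a difference of -1.64 ± 0.35 (SE), or 3.12-fold lower in CES (limma, adjusted p = 0.00823). Set against the all-gene median it was -1.39. Without CES replicate 2 it was -2.08 (adjusted p = 2.08e-05). Leaving out COS replicate 3 ended the call (-1.52, adjusted p = 0.0697), and so did leaving out CES replicate 1 (-1.46, adjusted p = 0.0516).

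Of the cyclooxygenases, Ptgs2 was called lower in CES and Ptgs1 was not called, and the difference between the genes was not tested. Ptgs1, the housekeeping form, had levels of 1.72, 0.74, 1.86 and 1.12 in the COS rats and of 1.12, 0.68, 1.76 and 1.08 in the CES rats. The ranges overlapped almost entirely, and in each group the Cy5 rats were the lower ones. The difference was -0.20 ± 0.20 (SE), with a 95% interval of -0.65 to 0.25 (limma, adjusted p = 0.472), and set against the all-gene median it was 0.050. It was -0.10 without CES replicate 2, and its sign was positive under loess, quantile and 3 further settings.

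Ptgs2, the inducible cyclooxygenase, had levels of 4.48, 4.77, 5.37 and 4.35 in the COS rats. In the CES rats the levels were 2.16, 3.97, 3.13 and 2.43. No CES rat reached the lowest COS rat, and CES replicate 2 came nearest to it. The COS mean was 4.74 ± 0.46 (SD, n = 4) and the CES mean was 2.92 ± 0.81 (SD, n = 4), which leaves a difference of -1.82 ± 0.39 (SE), or 3.53-fold lower in CES (limma, adjusted p = 0.00832). Set against the all-gene median it was -1.57. Without CES replicate 2 the difference was -2.22 (adjusted p = 3.09e-04), and without COS replicate 3 it was -1.52 and missed the threshold (adjusted p = 0.074).

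The probes behind both cyclooxygenases were printed 10 times on every array, which gives a measure of the error within a rat. After 1 Ptgs1 spot and 3 Ptgs2 spots that the scanner software marked as outliers were left out, the SD over the spots of a rat was 0.198 to 0.245 for Ptgs1 and 0.0643 to 0.271 for Ptgs2. The used Ptgs2 spots of COS replicate 4, the lowest COS rat, ran from 4.08 to 4.76, and those of CES replicate 2 ran from 3.85 to 4.06. The spot values of these 2 rats therefore lay next to each other without overlapping, and the remaining CES rats had used spots of at most 3.20. With the outlier spots included, CES replicate 2 reached 4.76 and overlapped COS replicate 4.

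**Figure D2:**
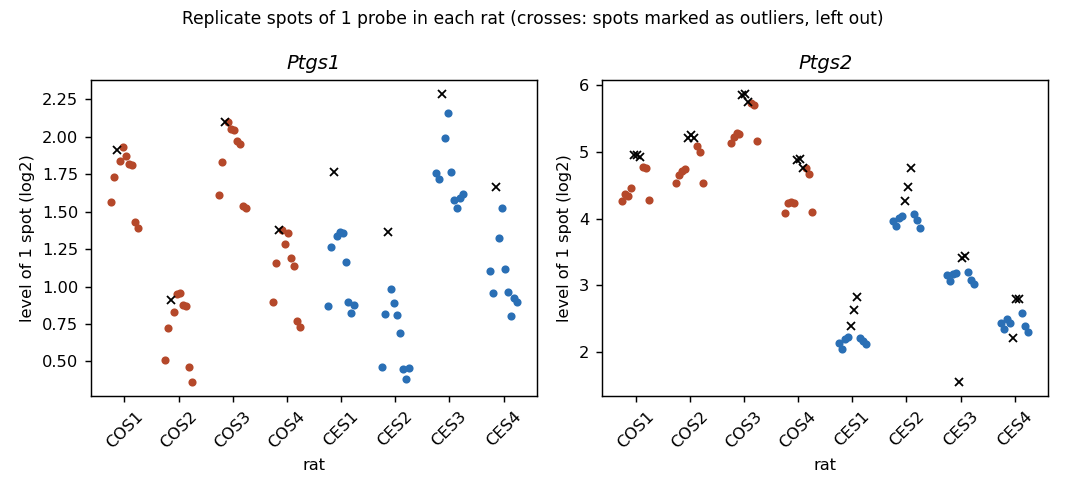
Level (log2) of each of the 10 spots of the Ptgs1 probe (left) and of the 3′ Ptgs2 probe (right) in each of the 8 rats, with COS in red, CES in blue and crosses for the outlier spots that were left out. Ptgs1 spots of COS and CES cover nearly the same range, while the used Ptgs2 spots of the COS rats start at 4.08 and those of the CES rats end at 4.06.

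A further Ptgs2 probe, independent of the 3′ probe, covers an earlier part of the transcript. Its 60 bases span 185 bases of the genome at chr13:64430899-64431083 of rn4, so it crosses an exon junction, and it is shown because it reads a separate stretch of the same mRNA.
Ptgs2 second probe: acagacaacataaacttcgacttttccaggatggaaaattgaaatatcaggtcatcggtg
This probe was dim and was not used in the gene level, since it was valid in the 4 COS rats and in 2 CES rats, and well above background in 2 COS rats and 1 CES rat. Without the filter on valid spots its levels were -1.23, -1.60, -0.36 and -1.05 in the COS rats and -2.67, -2.65, -2.50 and -3.96 in the CES rats. The groups did not overlap, and the fitted difference was -1.88 ± 0.34 (SE; limma over probes without the filter, a fit added after the data were seen, adjusted p = 0.0279), in a fit that called 9.98% of probes lower. In the same fit the 3′ probe gave -1.82 ± 0.46 (SE, adjusted p = 0.0417). The CES signals of the dim probe were below the 95th percentile of the negative controls in 3 of the 4 rats, so the size of its difference is poorly determined.

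Ptges, the inducible prostaglandin E synthase that works downstream of Ptgs2, had levels of 1.74, 1.39, 1.42 and 0.71 in the COS rats. The CES rats had levels of -0.82, -0.022, -0.48 and -1.10. All CES rats were below 0 and all COS rats were above it. The COS mean was 1.32 ± 0.43 (SD, n = 4) and the CES mean was -0.60 ± 0.46 (SD, n = 4), which leaves a difference of -1.92 ± 0.28 (SE), or 3.78-fold lower in CES (limma, adjusted p = 0.00368). It was -1.67 against the all-gene median and -2.20 without CES replicate 2 (adjusted p = 5.68e-05). Of the members, Ptges had the lowest adjusted p, and its call was kept without each of the 8 rats in turn. Like Pla2g4a, it was read by a single spot. The signals of CES replicates 1 and 3 were only 1.295 and 1.635 times the 95th percentile of the negative controls. Under normexp the Ptges difference was -1.22 (limma, adjusted p = 0.038), so its size is uncertain.

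Ptgds, the synthase of prostaglandin D2 in brain, is a major product of the meninges, the choroid plexus and oligodendrocytes. Its levels were 7.40, 7.69, 6.65 and 5.96 in the COS rats and 6.98, 6.07, 6.60 and 7.05 in the CES rats. The COS rats spread widely, and all CES rats lay inside their range. The difference was -0.25 ± 0.37 (SE), with a 95% interval of -1.08 to 0.58 (limma, adjusted p = 0.631), which equalled the median shift of all genes, and it was -0.049 without CES replicate 2. It turned positive without COS replicate 2 (0.10) and under loess, quantile and 3 further settings. The Ptgds probe reads 60 bases of mRNA over chr3:3633310-3633779 of rn4, across introns.
Ptgds probe: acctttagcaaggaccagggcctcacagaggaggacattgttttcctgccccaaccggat

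Choroid plexus and meningeal markers varied between the same rats. The mean level of the 6 quantified choroid plexus markers was 1.04, 4.26, 1.30 and -0.22 in the COS rats and 1.39, 2.03, 0.79 and 2.57 in the CES rats. The 10 meningeal fibroblast markers had means of 2.03, 2.22, 1.83 and 1.04 in the COS rats and of 1.25, 1.42, 1.58 and 1.20 in the CES rats. Among the COS rats, replicate 2 was the highest and replicate 4 the lowest in both lists and in Ptgds. Among the CES rats the orders agreed only in part. Replicate 4 had the highest Ptgds level and the highest choroid plexus mean, but the lowest meningeal mean. Replicate 2 had the lowest Ptgds level and the second highest choroid plexus mean. No choroid plexus marker was called, while 2 of the 10 meningeal markers were lower and 1 was higher in CES, against 28.1% and 5.74% of all genes. The 8 oligodendrocyte markers had means of 4.07 to 4.86 in COS and of 3.92 to 4.71 in CES, with CES replicate 2 the lowest of all rats and COS replicate 3, not replicate 4, the lowest of the COS rats. The part of these cells in the Ptgds levels was not tested.

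The prostaglandin E2 receptors were read close to the detection limit. Ptger2, which encodes the cAMP-raising EP2 receptor, was the only receptor valid in all 8 rats, with 3 COS and 2 CES rats well above background. Its levels were -0.53, -1.29, -0.30 and -1.51 in the COS rats and -1.45, -1.74, -1.42 and -2.18 in the CES rats. The groups overlapped, but within each dye both COS rats were above both CES rats. The difference was -0.79 ± 0.18 (SE; limma, adjusted p = 0.0107), and -0.54 against the all-gene median. The signals of CES replicates 1 and 3 were 0.833 and 0.851 times the 95th percentile of the negative controls, and the difference ran from -1.40 to -0.38 over the settings tried, so its size is uncertain. Without CES replicate 2 it was -0.93 (adjusted p = 0.00227). Leaving out COS replicate 3 ended the call (-0.69, adjusted p = 0.0734), and so did leaving out CES replicate 1 (-0.72, adjusted p = 0.0581), and the call was the least stable among the settings tried. The file also assigns the Ptger2 probe to a receptor-like transcript of near-identical sequence, and signals of the 2 transcripts cannot be told apart.

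Ptger1, Ptger3 and Ptger4, the EP1, EP3 and EP4 receptors, were valid in all 4 COS rats but in only 2, 3 and 2 CES rats. Over the whole array, too, CES rats had fewer valid spots than COS rats of the same dye. Ptger1 was well above background in 1 of the 8 rats, CES replicate 2. Its net signal was 0.823 to 2.75 times the 95th percentile of the negative controls in COS and 0.516 to 2.96 times in CES, so its level was not established in either group. Ptger3, a receptor that lowers cAMP, was well above background in 3 COS rats and in CES replicate 2. Without the filter its levels were -0.96, -1.46, -0.43 and -1.88 in the COS rats and -2.40, -2.60, -1.39 and -3.31 in the CES rats. CES replicate 3 reached into the COS range, and the difference was -1.24 (limma without the filter, adjusted p = 0.0459), a fit that called 8.14% of genes lower. The signals of CES replicates 1 and 3 were 0.434 and 0.871 times the 95th percentile of the negative controls, so the CES level is near the limit of detection and the size of this difference is uncertain too.

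Ptger4, another receptor that raises cAMP, was well above background in 2 COS rats and in CES replicate 2. Its probe, at chr2:54423296-54423355 of rn4, is shown because the receptor could be followed only below the filter.
Ptger4 probe: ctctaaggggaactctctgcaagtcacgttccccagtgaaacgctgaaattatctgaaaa
Without the filter its levels were -1.16, -1.48, -0.68 and -1.55 in the COS rats and -2.05, -2.87, -2.35 and -4.30 in the CES rats. No CES rat overlapped COS, and the difference was -1.68 (limma without the filter, adjusted p = 0.0343). Only 1 CES rat exceeded the 95th percentile of the negative controls, against 4 COS rats, so the CES level is at the limit of detection and the size of the difference is uncertain. The plot of the dim probes gives the signals that stand behind these receptors.

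**Figure D3:**
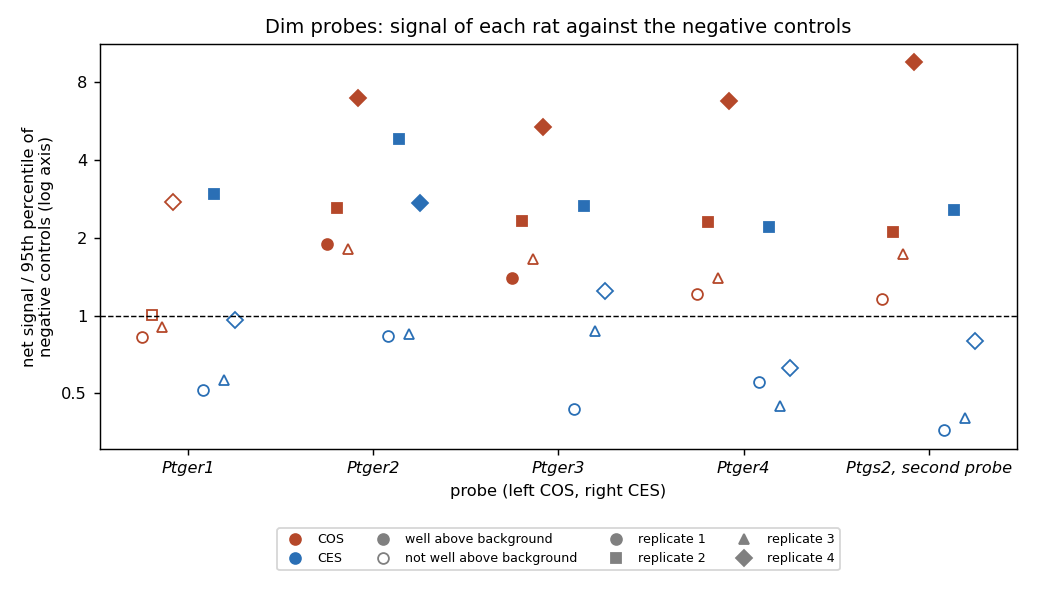
Net signal of the 4 receptor probes and of the dim Ptgs2 probe in each rat, over the 95th percentile of that channel's 153 negative controls (log axis, dashed line at 1), with COS in red, CES in blue, marker shapes for replicate numbers and filled symbols for signals well above background. Most CES signals lie below the line, CES replicate 2 lies above it for all 5 probes, and COS signals lie near or above it. The Cy5 rats (replicates 2 and 4) lie above the Cy3 rats of their group for each probe.

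Hpgd, the dehydrogenase that starts the breakdown of prostaglandins, had levels of 1.03, 0.21, 1.57 and 0.45 in the COS rats. The CES rats had levels of 0.91, 1.09, 1.46 and 0.67. All CES rats lay inside the COS range. The difference was 0.22 ± 0.23 (SE), with a 95% interval of -0.29 to 0.73 (limma, adjusted p = 0.495), and 0.47 against the all-gene median. It was 0.064 without CES replicate 2, was above 0 under all 25 alternative settings and was called under none of them.

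Within the Cy3 rats alone, with 2 rats per group, the differences were -2.04 for Pla2g4a, -2.28 for Ptgs2, -2.23 for Ptges and -1.02 for Ptger2. Within the Cy5 rats, which include CES replicate 2, they were -1.24, -1.36, -1.61 and -0.56 for the same genes. All 4 were thus lower in CES with each dye, by less with Cy5. The members without a call gave -0.35 and -0.050 for Ptgs1, -0.24 and -0.27 for Ptgds, and -0.12 and 0.55 for Hpgd with Cy3 and Cy5. Hpgd was the only quantified member whose sign depended on the dye.

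Pla2g4a and Ptgs2 are neighbours in the genome. In GRCr8 (RefSeq), Pla2g4a lies at chr13:64427921-64572352 on the minus strand and Ptgs2 at chr13:64714063-64722320 on the plus strand, so they are divergent, with 142 kb and no other protein-coding gene between them. Ptgs1, Ptges and Ptgds lie on chromosome 3, several megabases from each other. The 250 bases before the annotated start of the called enzymes Pla2g4a, Ptgs2 and Ptges, and of Ptgs1 as the cyclooxygenase that was not called, are given below from RefSeq (GRCr8), 5′ to 3′ in the direction of the gene. Capitals mark the matches to the motifs searched.
Pla2g4a (chr13:64572353-64572602, minus strand): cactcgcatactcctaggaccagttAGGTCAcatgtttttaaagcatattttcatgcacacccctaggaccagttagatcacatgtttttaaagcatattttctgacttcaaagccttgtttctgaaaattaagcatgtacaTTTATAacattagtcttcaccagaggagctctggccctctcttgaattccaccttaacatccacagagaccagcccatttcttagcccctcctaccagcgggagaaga
Ptgs2 (chr13:64713813-64714062, plus strand): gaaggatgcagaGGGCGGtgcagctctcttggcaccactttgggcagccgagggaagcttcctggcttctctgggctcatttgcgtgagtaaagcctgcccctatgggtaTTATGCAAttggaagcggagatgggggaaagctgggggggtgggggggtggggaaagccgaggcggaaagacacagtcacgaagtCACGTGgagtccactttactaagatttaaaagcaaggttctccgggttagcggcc
Ptges (chr3:34586988-34587237, minus strand): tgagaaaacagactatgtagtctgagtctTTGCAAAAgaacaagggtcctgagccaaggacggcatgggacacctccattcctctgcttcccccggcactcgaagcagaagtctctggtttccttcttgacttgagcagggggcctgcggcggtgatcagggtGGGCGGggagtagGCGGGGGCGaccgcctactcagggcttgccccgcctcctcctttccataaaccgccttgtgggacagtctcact
Ptgs1 (chr3:39981169-39981418, plus strand): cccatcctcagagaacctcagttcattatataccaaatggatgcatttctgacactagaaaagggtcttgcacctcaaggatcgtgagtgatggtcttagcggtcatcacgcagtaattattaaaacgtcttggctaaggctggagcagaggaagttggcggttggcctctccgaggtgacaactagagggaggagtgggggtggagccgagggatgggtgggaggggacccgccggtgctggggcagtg

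The 10 motifs were searched on both strands of such windows for all 10 members, and in 33469 promoters for comparison. Each window is placed by the transcript start of the RefSeq promoter table, which for the 4 receptors lies inside the annotated gene, so their windows lie partly or wholly within it. The Ptgs2 window held a C/EBP site (TTGCNNAA) at positions -140 to -133 from the start, an E-box (CACGTG) and a GC box (GGGCGG). The C/EBP letters were in 2 of the 10 members, Ptgs2 and Ptges, and in 9.22% of all promoters, while the E-box was in 1 member and in 5.59%. The Ptges window also held an Egr site (GCGNGGGCG), found in 4.29% of all promoters, which overlaps no other match there, and a GC box, found in 30.5%. The Pla2g4a window held an estrogen response half-site (AGGTCA), found in 14.1% of all promoters and in 1 other member, Ptgds, together with a TATA box (TATAAA, 12.9%) on the opposite strand. The full palindromic estrogen response element, the AP-1 site (TGANTCA) and the NF-kappa-B site were in no member, and in 0.0239%, 6.34% and 1.3% of all promoters. The CRE half-site (TGACG) was in Hpgd alone and in 18.2% of all promoters. The Ptgs1 window held none of the 10 motifs. These matches describe the letters of the windows only.

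Other genes of the prostanoid pathway were taken from a list of 30 names, of which 23 were on the array and 15 were quantified. Of these 15, 5 were lower in CES (Tbxas1, Ptgis, Cbr1, Tbxa2r and Ptgr1) and 1 was higher (Pla2g6), against 28.1% and 5.74% of all genes. The median difference of the list was -0.39, or -0.14 against the all-gene median. The count of lower genes was 8 of 16 without CES replicate 2 and 3 without COS replicate 1. It was 1 without COS replicate 3, without CES replicate 1 and under several scalings. The count over all genes moved as well. It was 6674 of 20951 without CES replicate 2 and 3343 of 20865 without COS replicate 1. Without COS replicate 3 it was 1037 of 20869, and without CES replicate 1 it was 2213 of 21123. Tbxas1, the thromboxane A synthase of platelets and microglia, had levels of 3.18, 2.53, 3.38 and 2.66 in the COS rats and of 0.74, 2.42, 1.09 and 0.60 in the CES rats. The groups did not overlap, although CES replicate 2 was close to the lowest COS rat, and the difference was -1.73 ± 0.39 (SE; limma, adjusted p = 0.00997). It missed the threshold when COS replicate 3 was left out (-1.54, adjusted p = 0.0835) or CES replicate 1 was (-1.47, adjusted p = 0.0592). Tbxa2r, the thromboxane receptor, differed by -0.93 ± 0.29 (SE, adjusted p = 0.0341), with 3 COS and 2 CES rats well above background, and its call ended in 6 of the 8 fits that left out 1 rat (adjusted p = 0.0513 to 0.159, the exceptions being COS replicate 4 and CES replicate 2).

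Ptgis, the prostacyclin synthase, had levels of 0.32, 1.14, 0.060 and -0.63 in the COS rats and of -1.36, -1.50, -0.43 and -1.61 in the CES rats. The groups overlapped through CES replicate 3 and COS replicate 4, only 2 CES rats were well above background, and the difference was -1.45 ± 0.37 (SE; limma, adjusted p = 0.0162). Its call too ended without COS replicate 3 (-1.51, adjusted p = 0.0791) or CES replicate 1 (-1.34, adjusted p = 0.0771). Cbr1, a carbonyl reductase that can convert prostaglandin E2 to F2α, had levels of 3.95, 4.24, 4.10 and 3.65 in the COS rats and of 2.98, 2.92, 3.22 and 2.80 in the CES rats. Here CES replicate 2 lay with its group, and the difference was -1.01 ± 0.18 (SE, adjusted p = 0.005), a call kept without each rat in turn. Ptgr1, a reductase of prostaglandin breakdown, differed by -0.72 ± 0.21 (SE, adjusted p = 0.0263), with overlapping groups. Pla2g6, the calcium-independent phospholipase A2, had levels of 1.13, 1.33, 1.32 and 1.17 in the COS rats and of 2.01, 1.33, 2.39 and 2.07 in the CES rats. It was the only phospholipase of the list called higher, by 0.71 ± 0.22 (SE; limma, adjusted p = 0.0302), and CES replicate 2 had a level like COS. The calls of Ptgr1 and Pla2g6 both ended without COS replicate 1 (adjusted p = 0.0772 and 0.107), COS replicate 3 (0.142 and 0.121), COS replicate 4 (0.0714 and 0.071) or CES replicate 1 (0.103 and 0.0961).

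**Figure D4:**
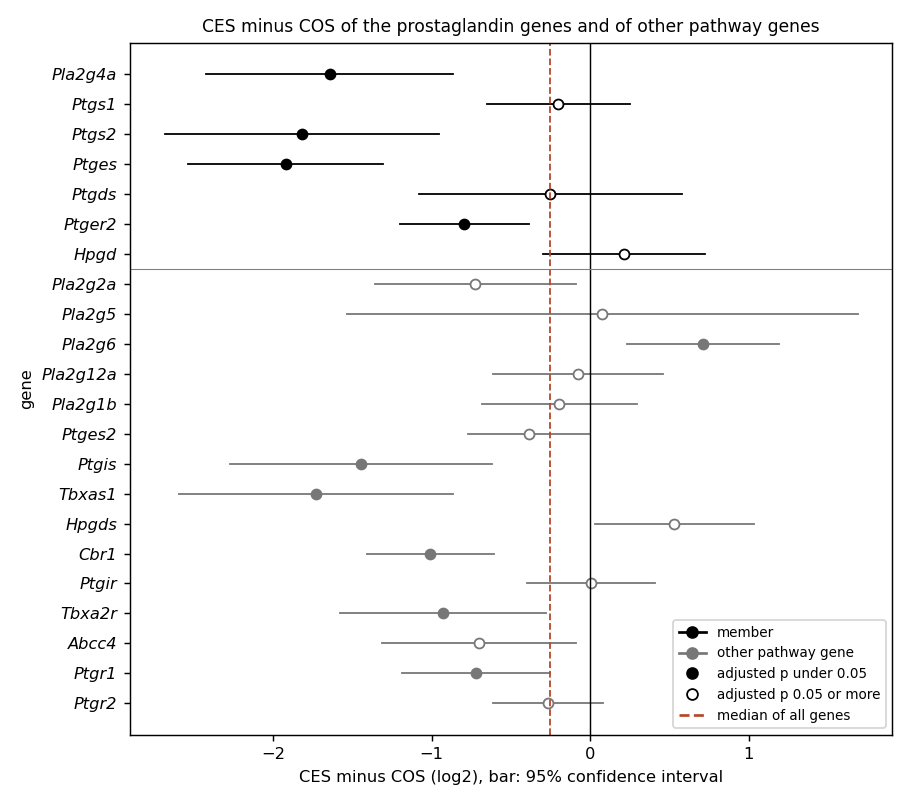
CES minus COS difference (log2) with its 95% confidence interval for the 7 quantified members (black) and the 15 quantified other genes of the prostanoid pathway (grey), filled where the adjusted p was under 0.05, with a dashed line at the median of all genes (-0.25). Pla2g4a, Ptgs2, Ptges, Ptgis and Tbxas1 lie farthest to the left, and Pla2g6 is the only filled point to the right of 0.

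The neighbouring uses of arachidonic acid gave a mixed picture. Of 8 quantified lipoxygenase and epoxygenase genes, 2 were lower in CES and 2 were higher, where 28.1% and 5.74% of all genes were. Alox5ap differed by -1.47 ± 0.25 (SE; limma, adjusted p = 0.00448) and Lta4h by -0.61 ± 0.20 (SE, adjusted p = 0.0426). Ltc4s, the leukotriene C4 synthase, was higher by 1.01 ± 0.32 (SE, adjusted p = 0.0373), and the epoxygenase Cyp2j3 was higher by 0.69 ± 0.24 (SE, adjusted p = 0.0453). Alox5ap is the helper protein of 5-lipoxygenase, and its groups did not overlap. Lta4h encodes the hydrolase that makes leukotriene B4. The median of the 8 was -0.018, or 0.23 against the all-gene median. Mgll, the lipase that releases arachidonic acid from the endocannabinoid 2-AG, was higher by 0.71 ± 0.21 (SE; limma, adjusted p = 0.0281), and the other 3 quantified genes of that route did not pass. Alox5ap kept its call without each rat, whereas Lta4h, Ltc4s, Cyp2j3 and Mgll lost theirs in 6, 7, 7 and 4 of the 8 fits that left out 1 rat, COS replicates 1, 3 and 4 and CES replicate 1 being among them for each gene, at adjusted p values of at most 0.177, 0.115, 0.142 and 0.121. Mgll overlapped between the groups, with 2.39, 1.09, 2.43 and 1.77 in the CES rats against 0.55 to 1.66 in the COS rats.

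Signals known to induce or restrain prostaglandin synthesis were lower in CES in 11 of 15 quantified genes and higher in none, with a median of -1.24, while 28.1% of all genes were lower. Because the list was chosen with earlier results of these data known, this count is a description only. The list covered cytokines and receptors (2 of 3 lower), transcription factors with the NF-kappa-B inhibitor Nfkbia (8 of 8 lower) and glucocorticoid-linked genes (1 of 4 lower). The 4 largest differences were those of Fos (-4.25 ± 0.75), Anxa1 (-2.47 ± 0.34), Il1b (-2.47 ± 0.41) and Tnfrsf1a (-2.00 ± 0.36), each with its SE and adjusted p of 0.00498, 0.00368, 0.00428 and 0.00519 (limma). Fos encodes an activity-induced subunit of AP-1, and Il1b and Tnfrsf1a belong to inflammatory signalling. Anxa1, annexin A1, is known as an inhibitor of phospholipase A2 and Nfkbia as an inhibitor of NF-kappa-B, so both act in the other direction from the list's inducers. Only 3 COS rats and 2 CES rats were well above background for Il1b, and its difference ran from -3.25 with the processed signal to -1.14 under normexp (adjusted p = 0.0705), so its size is uncertain. The Fos levels were 5.28, 5.94, 5.44 and 4.40 in the COS rats and -0.12, 3.85, 0.36 and -0.021 in the CES rats, with CES replicate 2 far above the other CES rats, and the difference was -5.22 without it. Without CES replicate 2, 11 of the 15 were again called lower, and without COS replicate 3 5 were, with Fos at -3.92 (adjusted p = 0.0523) and Tnfrsf1a at -1.84 (adjusted p = 0.055). In the same order, these fits called 6674 of 20951 and 1037 of 20869 genes lower. Under the quantile setting 10 of the 15 signals were called lower and 1 higher.

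Markers of cells that make prostaglandins were compared beside these genes. Of 10 quantified microglia and macrophage markers 5 were lower and 1 was higher in CES, against 28.1% and 5.74% of all genes. Their mean level was 2.88 to 3.52 in COS and 2.16 to 2.72 in CES, without overlap under the reported scaling. Whether these means overlap under other scalings was not tested. The median difference of the 10 markers was -0.69, while that of all genes was -0.25. Within the list Cd68, a lysosomal marker of activated cells, differed by -2.19 ± 0.38 (SE; limma, adjusted p = 0.00487), whereas P2ry12, a receptor of resting microglia, was higher by 0.94 ± 0.20 (SE, adjusted p = 0.00811). Tmem119, a defining marker of microglia, was well above background in no COS rat and 1 CES rat, so it gave no usable level. Without it the mean of the other 9 markers, computed after the data were seen, was 3.58 to 4.05 in COS and 2.54 to 3.33 in CES. These means again did not overlap under the reported scaling. Of 7 endothelial markers 4 were lower, with mean levels of 0.85 to 1.64 in COS and of -0.25 to 0.82 in CES. The means of 3 leukocyte markers overlapped, with -1.68 to -0.32 in COS and -1.76 to 0.059 in CES. The part of microglial or endothelial RNA in the differences of Ptgs2, Ptges, Tbxas1 and Ptgis was not tested.

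Genes with a profile like that of Ptgs2 were sought among 13136 genes well above background in all rats, by the root mean square difference of mean-centred levels over the 8 rats. The 5 nearest were C1qc (0.143), the unnamed transcript TC617303 (0.187), Pnoc (0.194), Nptx2 (0.198) and LOC498276 (0.206), the last described in the file as an Fc gamma receptor. C1qc is a chain of complement C1q, made by microglia, Pnoc encodes the precursor of nociceptin, and Nptx2 encodes an activity-regulated pentraxin of neurons. C1qc had levels of 3.85, 3.72, 4.44 and 3.59 in the COS rats and of 1.57, 3.17, 2.30 and 1.55 in the CES rats. Likeness over 8 rats on 4 arrays is a description of these rats, and the points share arrays, dyes and groups.

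**Figure D5:**
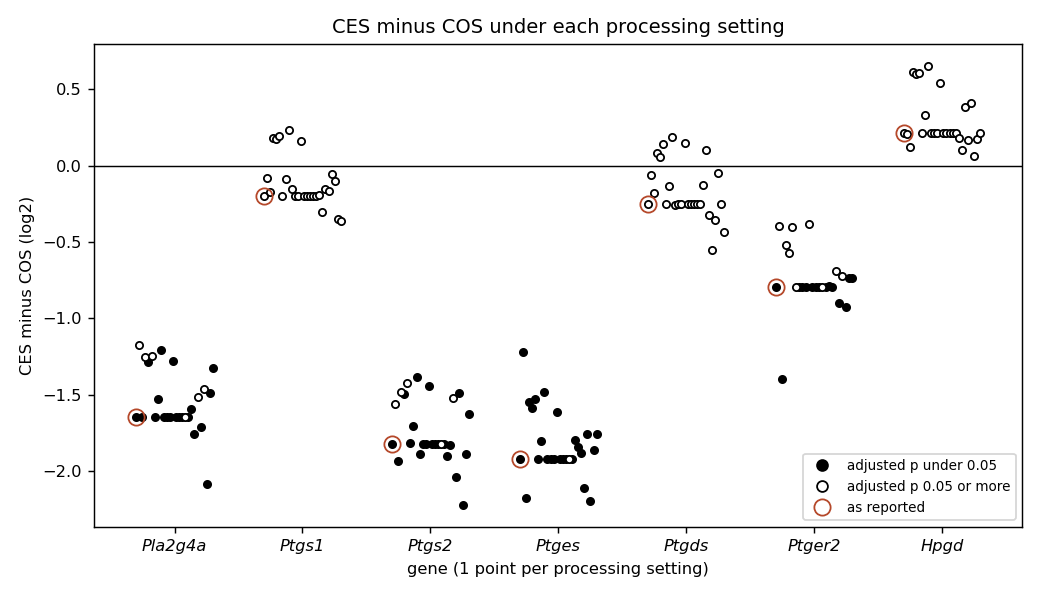
CES minus COS difference (log2) of each quantified member under the reported setting (ringed) and the alternative settings, filled where the adjusted p was under 0.05. Pla2g4a, Ptgs2 and Ptges stay below -1.1 throughout, Ptger2 stays below -0.38, Ptgs1 and Ptgds lie on both sides of 0, and Hpgd stays above 0.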

How the data were processed

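The deposited scanner files, produced by Agilent Feature Extraction 10.7.3.1 per the labels, give the mean intensity and the local background of each spot before any normalization, with probe positions on rn4. A series table deposited beside them holds log2 values, each column being the background-subtracted median signal of its channel on a log2 scale less a constant. It was used as an alternative.

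Spots with a mean signal below 2 times the background median in any rat, control spots and 1593 outlier spots were left out. The net signal was divided by the median over valid spots of the same label, averaged over the spots of a gene name and taken to log2. CES and COS were compared with limma 3.58.1 and statmod 1.5.0 in R 4.3.3, using a two-sided test with a dye term and a random block for the array, which is nested in the group. Benjamini-Hochberg adjustment ran over all 20787 genes, with a threshold of 0.05. The fit was tested on simulated data with a weak array effect and no outlying rat. Stronger array effects and a rat like CES replicate 2 were not simulated. The median SE of a difference was 0.20, a precision set by 4 rats per group on arrays nested in the group. The fitted correlation of rats sharing an array was 0.0044, so the fit treated them as nearly independent. That correlation was 0.24 under loess, 0.26 under scaling on commonly valid spots and 0.58 under normexp. Rats are separate animals, and groups and replicate numbers come from the sample records. Probe, promoter and figure steps used Python 3.11.15 and matplotlib 3.10.9.

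The members and lists were chosen with earlier results of these data known. Named are all members, every called gene of the other prostanoid list, up to 4 called genes with the largest difference of each further list, and the 5 genes most like Ptgs2. Alternatives covered background correction, normalization, filters, probe choice, gene names, blocks, the methods' t-test, and leaving out each rat. The probe fit without the filter was added after the data were seen.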

Additional observations from a re-analysis of the deposited data

How the results depend on the processing

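Over the 25 alternatives the differences of Pla2g4a, Ptgs2 and Ptges stayed below 0, and they were called in 19, 20 and 24 of them. Ptger2 was called in 14 of the 23 that gave it a value, having none at a foreground of 3 times background or among spots well above background. Hpgd was called in none. Pla2g4a and Ptgs2 lost their calls under normexp (-1.17 and -1.56, adjusted p = 0.0941 and 0.0671), loess (-1.26 and -1.48, 0.0552 and 0.0516), scaling by the spots that were valid in every rat (-1.25 and -1.42, 0.0514 and 0.0502) and the methods' t-test once Benjamini-Hochberg adjustment was applied (-1.64 and -1.82, 0.102 and 0.0899). Ptges lost its call under that adjusted t-test only (-1.92, 0.0693). Ptger2 lost its call under normexp (-0.39, 0.72), loess (-0.52, 0.0791), quantile (-0.57, 0.0648), scaling (-0.40, 0.0765), no filter (-0.79, 0.0509), the deposited table (-0.38, 0.0747) and the adjusted t-test (-0.79, 0.203). The methods set their threshold without that adjustment, with a fold limit and a correction for redundant spots that were not applied here. The unadjusted t-test p was 0.0173 for Pla2g4a, 0.0125 for Ptgs2, 0.00093 for Ptges and 0.0678 for Ptger2, so 3 members were under 0.05. The cause was not tested.

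Without each rat in turn the difference ran from -2.08 to -1.32 for Pla2g4a, -2.22 to -1.49 for Ptgs2, -2.20 to -1.76 for Ptges, -0.93 to -0.69 for Ptger2, -0.36 to -0.053 for Ptgs1, -0.55 to 0.10 for Ptgds and 0.064 to 0.41 for Hpgd.

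Ptgs1 and Ptgds, which were not called, turned positive under loess (0.18 and 0.085), quantile (0.18 and 0.056), scaling (0.19 and 0.14), the well-above-background filter (0.24 and 0.19) and the deposited log2 table (0.16 and 0.15), and Ptgds also without COS replicate 2 (0.10). These settings moved the median of all genes from -0.25 to between 0.052 and 0.15.

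The number of members lower in CES was 1 under normexp, loess and scaling, 0 under the adjusted t-test, and 1 to 4 without each rat. The 1 higher and 5 lower genes of the other prostanoid list became 0 and 0 under normexp and the adjusted t-test, 2 and 1 under loess, quantile, scaling and the deposited table, and 0 and 2 without the filter, with 2 lower at 3 times background and 1 lower among spots well above background. Leaving out each rat gave 0 to 1 higher and 1 to 8 lower. The 2 higher and 2 lower lipoxygenase and epoxygenase genes became 0 and 0 under normexp and the adjusted t-test, 1 and 1 with the processed signal or well above background, and 0 and 1 without the filter or with the replicate block, with 1 lower under loess, quantile, scaling, 3 times background and the deposited table. Without each rat they were 0 to 2 and 1 to 2. The 1 higher gene of the 2-AG route became 3 under loess, quantile, scaling, the well-above filter and the deposited table, 2 with the brightest probe, and 0 under normexp, the processed signal, no filter, the replicate block and the adjusted t-test, and it was 0 to 2 without each rat. Of the induction signals 4 were lower under normexp, 7 well above background and 0 by the adjusted t-test, and 1 was higher under loess, quantile, scaling, the well-above filter and the deposited table. Without each rat 5 to 13 were lower.

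Over all genes, 1194 higher and 5848 lower became 129 and 446 under normexp, 2996 and 1938 under loess, 3018 and 2249 under quantile, 3380 and 1778 under scaling, 424 and 2817 without the filter, 2090 and 867 well above background, and 3210 and 1923 in the deposited table. At 3 times background 2669 were lower. The adjusted t-test called 0 and 0, with 6098 genes at an unadjusted p under 0.05. Leaving out each rat gave 261 to 1751 higher and 1037 to 6819 lower.

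With the replicate number as a block, 1027 genes were higher and 5903 lower, and the same 4 members were called (adjusted p = 0.0146 for Pla2g4a, 0.00761 for Ptgs2, 0.00544 for Ptges and 0.0163 for Ptger2). Same-numbered rats share a dye. Once group and dye means were removed their deviations correlated at -0.283 to 0.0902. Removing these means itself makes such correlations negative, so the values cannot decide whether same-numbered rats were paired. The numbers were not treated as a pairing. Depth on arrays is signal over background, which limits the receptors most.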
